A study of Homo sapiens with 3 samples.

Results

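This account concerns 10 genes that mark epithelial or mesenchymal identity, CDH1, CDH2, VIM, SNAI1, SNAI2, ZEB1, ZEB2, KRT8, KRT18 and KRT19, in prostate cancer cells treated with n-butylidenephthalide (BP). The genes were listed by name and looked up among the 19208 genes to which the array annotation gave a transcript cluster of their own. Of the 10 genes, 9 had such a cluster. KRT19 was found only in a cluster annotated to both KRT19 and JUP, so its values are given apart and enter no count.

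Epithelial cells hold to one another through E-cadherin, the product of CDH1, and carry a cytoskeleton of keratins. In the epithelial-mesenchymal transition (EMT), cells lose E-cadherin and keratins and gain N-cadherin (CDH2) and vimentin (VIM). The transcription factors of the SNAI and ZEB families drive this switch by binding E-boxes in the promoters of epithelial genes and repressing them, and microRNAs of the miR-200 family in turn repress ZEB1 and ZEB2. Luminal cells of the prostate are known for CDH1, KRT8 and KRT18.

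RNA of LNCaP cells, an androgen-responsive human prostate cancer line, was hybridized to 3 Affymetrix Human Gene ST arrays, 1 for cells without a named treatment (control), 1 for cells given BP at 70 µg/ml over 3 h, and 1 for cells given the same dose over 24 h. All cells were grown in RPMI medium with serum, BP was added once the cells had attached, and total RNA was extracted with Trizol. The series title names DMSO or BP, but the label of the control array gives neither a vehicle nor a harvest time. The cells are a cultured line grown without stroma.

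Values are the deposited log2 values, 1 per transcript cluster, in which the signals of probes along a transcript are summarised. Because probes differ between genes, a value was compared only with the value of the same gene on another array. A difference of log2 values of at least 1 in size, which is 2-fold, was counted as higher or lower. With 1 array per condition there was no replicate, no test was possible, and no value carries an error. As bulk measurements, they cannot tell fewer cells of a kind from less RNA per cell. Over all genes, the central 95% of the differences from control lay between -0.35 and 0.48 for 3 h of BP, and for 24 h of BP the limits were -0.86 and 0.81. The deposited value was identical to that of control for 41.1% of genes on the 3 h array and for 46.7% on the 24 h array. Both times share the control array, so their differences from control are not independent.

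None of the 9 genes was past 2-fold in either direction at either time. KRT8 came nearest, at 1.92 times the control value after 24 h of BP, while its partner KRT18 was at 1.08 times. CDH1 and VIM, which mark opposite identities, were above control at 24 h by nearly the same amount, 0.36 and 0.30 on the log2 scale. The transcription factor genes SNAI1 and SNAI2 were below control at 24 h by less than 2-fold, and CDH2, ZEB1 and ZEB2 had exactly the control value.

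**Figure D1:**
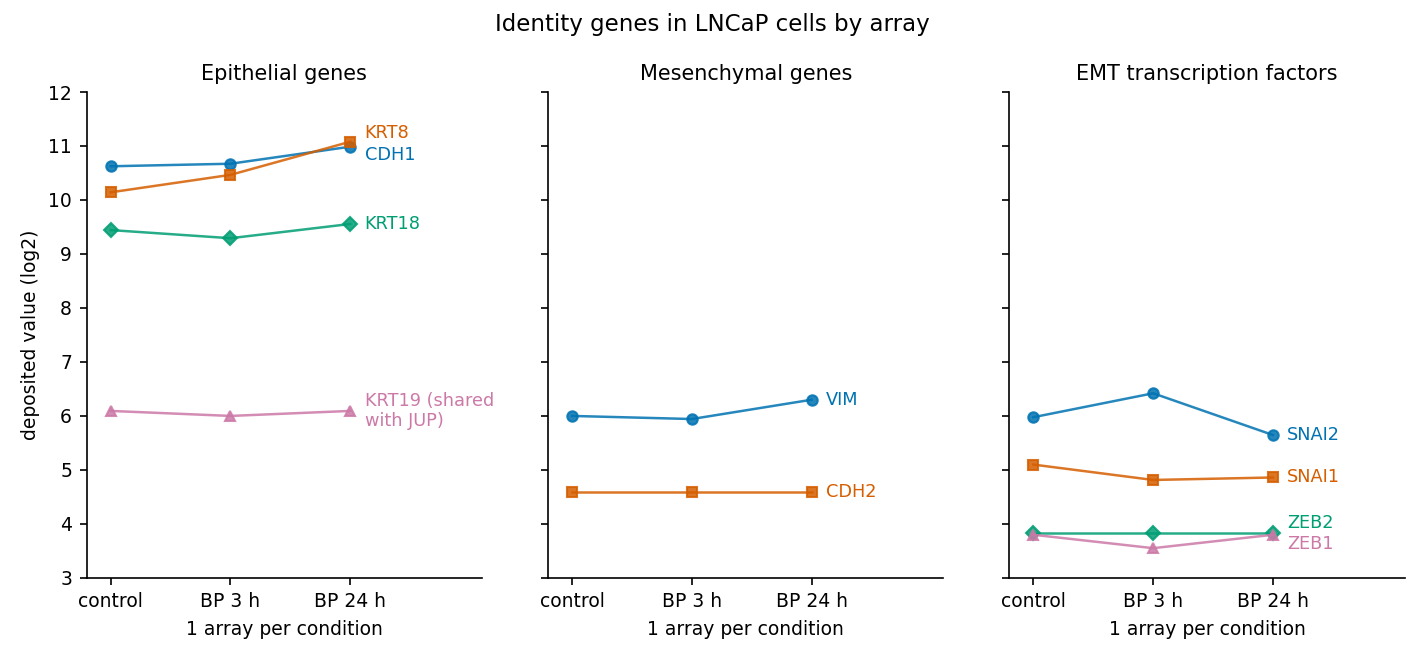
Deposited log2 value of each of the 10 genes on the 3 arrays (control, BP 3 h, BP 24 h), with epithelial genes on the left, mesenchymal genes in the middle and transcription factors on the right. KRT8 has its highest value at 24 h (11.08), SNAI2 its highest at 3 h (6.42), and CDH2 and ZEB2 have the same value on all 3 arrays; each point is 1 array and there are no error bars.

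E-cadherin joins neighbouring epithelial cells in adherens junctions. CDH1 (transcript cluster 7996837, cytoband 16q22.1) had a log2 value of 10.62 on the control array, 10.67 on the 3 h array and 10.99 on the 24 h array. The control and 3 h arrays were close to each other, with a difference of 0.047 whose sign turned when the arrays were rescaled, and the 24 h array was the highest, 0.36 above control. The 24 h value was 1.29 times that of control cells. The difference lay above that of 91.8% of genes, inside the central 95%. CDH3, the cadherin gene next to CDH1 on the chromosome, had a difference of 0.00 at both times.

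N-cadherin is the cadherin of neurons and mesenchymal cells that EMT brings in. CDH2 (cluster 8022674, 18q11.2) had the value 4.58 on all 3 arrays. The same 3 values were deposited for 93 transcript clusters, CDH2 included, so the deposited data resolve no difference for this gene. Whether CDH2 RNA differed below what these values resolve was not tested. The other 21 cadherin genes measured had 24 h differences between -0.08 and 0.09, and none of them had a value above the median over all genes. Of the 21, 17 had exactly the control value at 24 h, beside 69.6% of all genes without a value above that median.

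KRT8 and KRT18 encode the type II and type I keratins that pair into the filaments of simple epithelia. KRT8 (cluster 7963567, 12q13) had log2 values of 10.14 on the control array, 10.46 on the 3 h array and 11.08 on the 24 h array. The control array was the lowest and the 24 h array the highest. The 3 h difference from control was 0.32, which is 1.25 times the control value, and the 24 h difference was 0.94. A larger increase at 24 h was found for 1.85% of genes, and a larger difference in either direction for 4.12%. KRT8 was the 1 gene of the 9 outside the central 95% of all genes in a comparison with control.

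KRT18 (cluster 7955637), the neighbour of KRT8 in the same cytoband, had log2 values of 9.44 on the control array, 9.29 on the 3 h array and 9.56 on the 24 h array. It lay below control at 3 h by 0.15 on the log2 scale and above control at 24 h by 0.11, both inside the central 95% of all genes. The difference of KRT8 exceeded that of KRT18 by 0.47 at the early time and by 0.82 at the late one. Both genes have many processed pseudogenes in the human genome, and whether RNA of these adds to the signal of either cluster was not tested.

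KRT19 encodes a small type I keratin of simple and ductal epithelia. Its shared cluster (8015349, 17q21.2) had values of 6.09 on the control array, 6.00 on the 3 h array and 6.09 on the 24 h array. The value at 24 h was exactly that of control. JUP, which encodes the junction protein plakoglobin, also had a cluster of its own, with values of 8.77 on the control array, 8.80 on the 3 h array and 8.54 on the 24 h array, a 24 h difference of -0.23. The signal of KRT19 and that of JUP cannot be told apart in the shared cluster.

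Among the other 49 keratin genes, KRT75, a keratin of hair follicles, was at least 2-fold higher at 24 h, beside 1.53% of all genes. None was at least 2-fold lower, beside 2.11%. KRT75 had a log2 value of 4.27 on the control array, 4.27 on the 3 h array and 5.69 on the 24 h array, and it was thus 2.68-fold higher at 24 h. Its highest value remained below the median over all genes, 6.06. In 30 of the 49 genes the 24 h value was exactly that of control. At 3 h 23 of the 49 were below control by less than 2-fold, 26 had the same value and 0 were above it. Only 4 of the 49 had a value above the median over all genes. Of all genes that had none, 32.2% were below control at 3 h and 8.62% above it, and 69.6% equalled control at 24 h. The basal keratin KRT14 had a 24 h difference of -0.09, KRT17 one of -0.06, and the hair keratin KRT86 one of 0.07.

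Vimentin is the intermediate filament of mesenchymal cells. VIM (cluster 7926368, 10p13) had log2 values of 6.00 on the control array, 5.94 on the 3 h array and 6.30 on the 24 h array. The 3 h array was the lowest and the 24 h array the highest. The 3 h difference from control was -0.057. The 24 h difference was 0.30, or 1.23 times the control value, which lay above the difference of 90.2% of genes. The difference of CDH1 exceeded that of VIM by 0.10 at the early time and by 0.063 at the late one.

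Of 15 other intermediate filament genes 1 was at least 2-fold lower at 24 h, beside 2.11% of all genes. This gene was LMNB1, which encodes lamin B1 of the nuclear lamina. None was at least 2-fold higher, beside 1.53%. LMNB1 had log2 values of 9.15 on the control array, 9.07 on the 3 h array and 6.06 on the 24 h array, a difference of -3.08 at 24 h. The gene of the other B-type lamin, LMNB2, had a 24 h difference of -0.88, and LMNA had exactly the control value. SYNM, the gene of synemin, which copolymerises with vimentin and desmin, had a 24 h difference of 0.92, short of 2-fold.

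**Figure D2:**
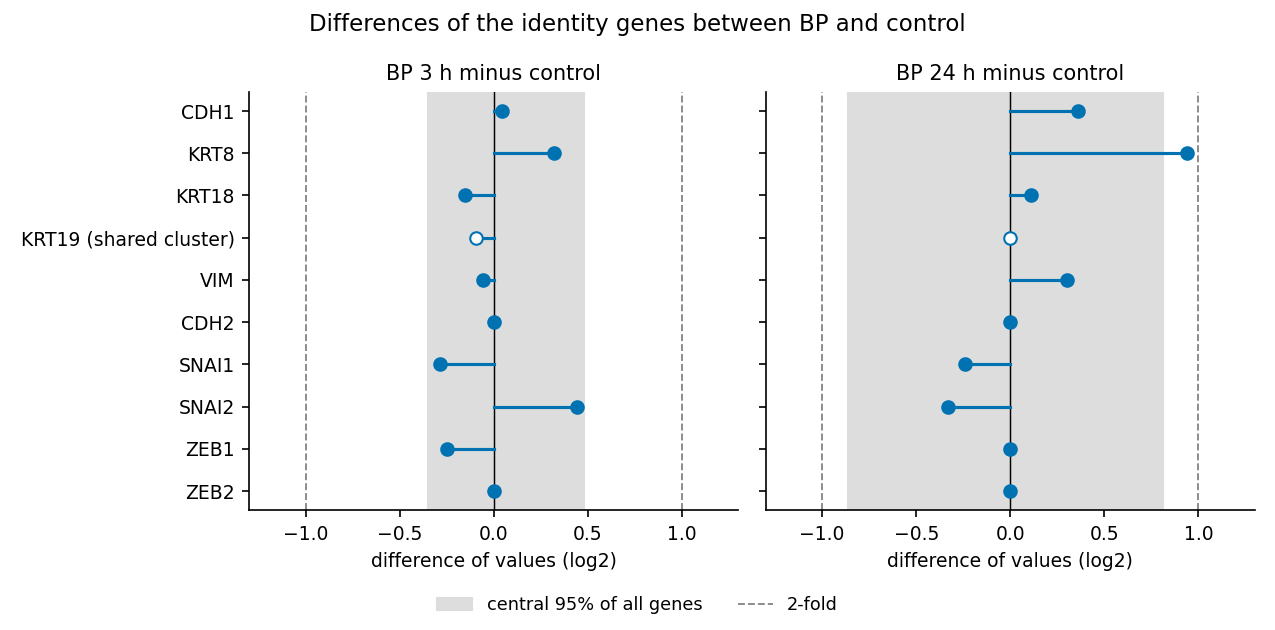
Difference of the log2 value from control for each of the 10 genes after 3 h of BP (left) and 24 h (right); the grey band holds the central 95% of all genes, the dashed lines mark 2-fold, and the open point is the cluster shared by KRT19 and JUP. All 10 points lie inside the dashed lines, and KRT8 at 24 h (0.94) is the only point outside the grey band.

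SNAI1 encodes Snail, a zinc finger repressor of CDH1. SNAI1 (cluster 8063382, 20q13.1-q13.2) had log2 values of 5.10 on the control array, 4.81 on the 3 h array and 4.86 on the 24 h array. Both BP arrays were below the control array. The 3 h difference was -0.28 and the 24 h difference -0.24. These are 0.821 and 0.847 times the control value. The highest of the 3 values was below the median over all genes.

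SNAI2 encodes Slug, the close relative of Snail. SNAI2 (cluster 8150698, 8q11) had log2 values of 5.98 on the control array, 6.42 on the 3 h array and 5.65 on the 24 h array. The 3 h array was the highest and the 24 h array the lowest of the 3. The 3 h difference from control was 0.44, or 1.36 times its value, and the 24 h difference -0.33, or 0.796 times. A larger increase at 3 h was found for 3.06% of genes. Against the 3 h array the 24 h array was lower by 0.77, or 0.585 times its value, and 3.52% of genes had a lower difference in this comparison. The difference of SNAI2 exceeded that of SNAI1 by 0.73 at the early time and was nearly the same at the late one, with -0.091 between them.

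ZEB1 and ZEB2 encode large zinc finger and homeodomain repressors. ZEB1 (cluster 7926916, 10p11.2) had log2 values of 3.80 on the control array, 3.55 on the 3 h array and 3.80 on the 24 h array. The 3 h array was lower than control by 0.25, or 0.842 times its value, and the 24 h array had exactly the control value. ZEB2 (cluster 8055624, 2q22) had the value 3.84 on all 3 arrays. These 3 values were deposited for 16 clusters in all, ZEB2 included. Both ZEB genes were below the median over all genes on every array.

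The miR-200 family, which represses ZEB1 and ZEB2, is measured on this array only through clusters named for the stem-loop precursors, so the mature microRNAs were not measured. The 5 members form seed groups that differ in 1 base, and their mature sequences from RefSeq (GRCh38.p14) are shown so that the groups can be compared, with the seed, bases 2 to 8, in capitals. The first 3 share the seed AAUACUG and the other two AACACUG. They lie on the plus strand at chr1:1167160-1167181 (miR-200b), chr12:6963742-6963764 (miR-200c), chr1:1169055-1169076 (miR-429), chr1:1167916-1167937 (miR-200a) and chr12:6964155-6964176 (miR-141).
hsa-miR-200b-3p: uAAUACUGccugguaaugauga
hsa-miR-200c-3p: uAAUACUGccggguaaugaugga
hsa-miR-429: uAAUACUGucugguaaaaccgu
hsa-miR-200a-3p: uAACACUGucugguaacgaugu
hsa-miR-141-3p: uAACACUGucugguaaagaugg

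In the first seed group the stem-loop cluster of miR-200b had log2 values of 5.20 on the control array, 4.94 on the 3 h array and 5.20 on the 24 h array, a 3 h difference of -0.26. The cluster of miR-200c had a 3 h difference of -0.21 and that of miR-429 one of -0.18. At low levels, 3 h values below control by any amount were common. Among the 9218 genes without a value above the median level, 32.2% were below control on the 3 h array and 8.62% were above it. The 3 h values of SNAI1 and ZEB1 belong to this range of levels too. In size their decreases were less common: 4.16% of all genes had a lower 3 h difference than SNAI1 and 5.51% a lower one than ZEB1. In the other seed group the clusters of miR-200a and miR-141 had the same value on all 3 arrays, 3.73 and 4.58. At 24 h all 5 clusters had exactly the control value, which was also the case for 69.6% of genes without a value above the median level. The 3 values of the miR-141 cluster were those of CDH2, so they resolve no difference either.

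The E-box bound by SNAI and ZEB proteins, CAGGTG or its reverse complement CACCTG, was searched in windows of 300 bases, 250 before and 50 after each transcription start, from RefSeq (GRCh38.p14). Windows were given for 5 of the 10 genes, VIM, ZEB1, ZEB2, KRT8 and CDH2, 12 windows in all. Over all 35116 windows, 20.6% held the motif. Of the 12 windows 2 held it, both of them among the 7 windows of ZEB1, and those of VIM, ZEB2, KRT8 and CDH2 held none. The ZEB1 window at chr10:31318966-31319265 on the plus strand held 3 copies, and 3 or more were found in 0.635% of all windows. It is shown with the motif in capitals because it carries most of the matches. A match is a string of letters and does not show that a protein binds there.
ZEB1 window: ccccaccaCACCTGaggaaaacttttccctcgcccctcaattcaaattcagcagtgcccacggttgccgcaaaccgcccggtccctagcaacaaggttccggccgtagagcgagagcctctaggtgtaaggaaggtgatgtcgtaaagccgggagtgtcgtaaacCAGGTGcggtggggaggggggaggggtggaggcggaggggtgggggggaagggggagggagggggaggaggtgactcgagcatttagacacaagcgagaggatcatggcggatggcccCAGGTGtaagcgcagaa

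The counts of the 9 genes stand beside those of all genes as follows. At 3 h, 0 of the 9 identity genes passed 2-fold upward, as did 0.344% of all genes, and 0 passed it downward, as did 0.0469% of all genes. At 24 h, 0 of the 9 were higher, against 1.53% of all genes, and 0 were lower, against 2.11%. Between the 24 h and 3 h arrays, 0 of the 9 were higher at 24 h, against 0.807% of all genes, and 0 were lower, against 2.4%. With shares this small, none of 9 genes past 2-fold is no departure from the background.

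At 1.5-fold, 0 of the 9 genes were higher at 3 h (1.55% of all genes) and 0 were lower (0.401% of all genes). At 24 h KRT8 was the 1 gene of the 9 at least 1.5-fold higher (4.49% of all genes), and 0 were lower (4.04% of all genes). Between 24 h and 3 h, KRT8 was the 1 gene higher (2.45% of all genes) and SNAI2 the 1 gene lower (5.12% of all genes).

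Without a threshold, 3 of the 9 genes were above control at 3 h (CDH1 among them, with the sign that turned on rescaling), 4 were below and 2 had the same value. Of all genes, 31.2% were above control at 3 h, 27.6% were below and 41.1% had the same value. At 24 h 4 of the 9 were above, 2 were below and 3 had the same value, beside 25.4%, 27.9% and 46.7% of all genes. Against the 3 h array, 6 were higher at 24 h, 1 was lower and 2 had the same value, beside 32.7%, 24.1% and 43.2% of all genes. The 6 higher genes included CDH1, KRT8 and KRT18 of the epithelial genes, VIM of the mesenchymal genes, and SNAI1 and ZEB1 of the transcription factors. The median difference of the 9 genes from control was 0.00 for either time, beside medians of 0.00 over all genes. At 24 h the 0.00 is the value of CDH2, ZEB1 and ZEB2. Over the 5 genes with a value above the median level (CDH1, VIM, SNAI2, KRT8 and KRT18) the median was 0.30. For all genes with such a value it was 0.00. The 0.30 is the difference of VIM itself, which was above that level on the 24 h array alone. SNAI2 was above it on the 3 h array alone, so the choice of these 5 depends on the BP arrays. Between 24 h and 3 h the median was 0.25 for the 9 genes and 0.00 for all genes. This median is the difference of ZEB1 itself, whose values lay below the lower quartile of each array, and it was 0.17 when the shared KRT19 cluster was counted.

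The partners of E-cadherin and the other junction proteins were described by a list of 27 genes, of which 26 were measured. At 24 h 1 of the 26 was at least 2-fold higher, beside 1.53% of all genes, and 1 was at least 2-fold lower, beside 2.11%, with a median difference of 0.00. CLDN12, a claudin of tight junctions, had log2 values of 8.98 on the control array, 8.88 on the 3 h array and 10.05 on the 24 h array, and was 2.09-fold higher at 24 h. CLDN8, another claudin, had values of 6.05, 6.07 and 4.48 on the control, 3 h and 24 h arrays, a 24 h difference of -1.57. The claudin genes CLDN1 and CLDN3 had 24 h differences of 0.00, and CLDN4 had one of 0.085. CLDN1 had the value 4.19 on all 3 arrays, which was also deposited for other listed genes, so its values resolve no difference.

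The catenins, which tie cadherins to actin, were not past 2-fold. CTNNA1, the gene of alpha-catenin, which links the cadherin complex to actin, had a 24 h difference of 0.83, whereas CTNNB1, the gene of beta-catenin, had one of 0.00 and CTNND1, the gene of p120-catenin, one of 0.28. OCLN, the gene of occludin, had a 24 h difference of 0.76. DSP, the gene of desmoplakin, had a 3 h difference of 0.40 and a 24 h difference of 0.30. On the 3 h array none of the 26 genes was past 2-fold, beside 0.344% of all genes higher and 0.0469% lower.

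Of 22 epithelial regulators and membrane proteins, only ELF3 was at least 2-fold higher, at both times. Of all genes, 0.344% were so at 3 h and 1.53% at 24 h. None of the 22 was at least 2-fold lower at 3 h (0.0469% of all genes) or at 24 h (2.11%). ELF3 encodes an ETS transcription factor of epithelial cells. It had a log2 value of 5.86 on the control array, 7.37 on the 3 h array and 7.45 on the 24 h array, and its increase over control was 2.83-fold for 3 h of BP and 3.01-fold for 24 h. Both BP arrays stood above the control array and near each other. ESRP1, an epithelial splicing regulator that is lost in EMT, had a 24 h difference of 0.94 and EHF, another ETS factor of epithelia, one of -0.83. The median of the list was 0.00 at both times.

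Of 14 other transcription factors known for EMT, 13 were measured and none was past 2-fold at either time. Of all genes, 0.344% were at least 2-fold higher and 0.0469% lower at 3 h, and 1.53% and 2.11% at 24 h. The 24 h differences of the 13 lay between -0.34, of TCF3, and 0.50, of TCF12. Both encode E proteins, the partners of TWIST1. TWIST1 itself had log2 values of 7.09 on the control array, 6.84 on the 3 h array and 6.78 on the 24 h array. FOXC2, a forkhead factor, had a 3 h difference of -0.30 and a 24 h difference of -0.11. The median was 0.00 at both times.

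Of 37 genes of mesenchymal cells and their matrix, 36 were measured. At 24 h ACTA2 was at least 2-fold higher, beside 1.53% of all genes, and none was at least 2-fold lower, beside 2.11%. For 26 the 24 h value was exactly that of control, beside 46.7% of all genes. Only 8 of the 36 had a value above the median over all genes, and of all genes that had none, 69.6% equalled control at 24 h. ACTA2, the gene of smooth muscle actin, had log2 values of 7.84 on the control array, 7.75 on the 3 h array and 9.31 on the 24 h array, and was 2.76-fold higher at 24 h. TPM1, a tropomyosin gene, had a 24 h difference of 0.54. FN1, the gene of fibronectin, had values of 9.58 on the control array, 10.04 on the 3 h array and 8.66 on the 24 h array. Between the 24 h and 3 h arrays FN1 fell by 1.39 on the log2 scale. FN1 was highest at 3 h and lowest at 24 h, an order found for 9.22% of all genes, SNAI2 included.

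TGF-beta is a main inducer of EMT, acting through SMAD proteins. Of 10 genes for its ligands, receptors and SMADs, SMAD7 was at least 2-fold higher at 3 h, beside 0.344% of all genes. None was past 2-fold at 24 h, when 1.53% of all genes were higher and 2.11% lower. SMAD7, which encodes the inhibitory SMAD that blocks the receptors, had log2 values of 5.69 on the control array, 7.36 on the 3 h array and 6.66 on the 24 h array, 3.19-fold higher at 3 h. Its 24 h difference was 0.97. SMAD2 and SMAD3, which encode the SMADs that carry the signal, had 24 h differences of 0.33 each, and the median of the 10 genes was 0.10 at 24 h.

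**Figure D3:**
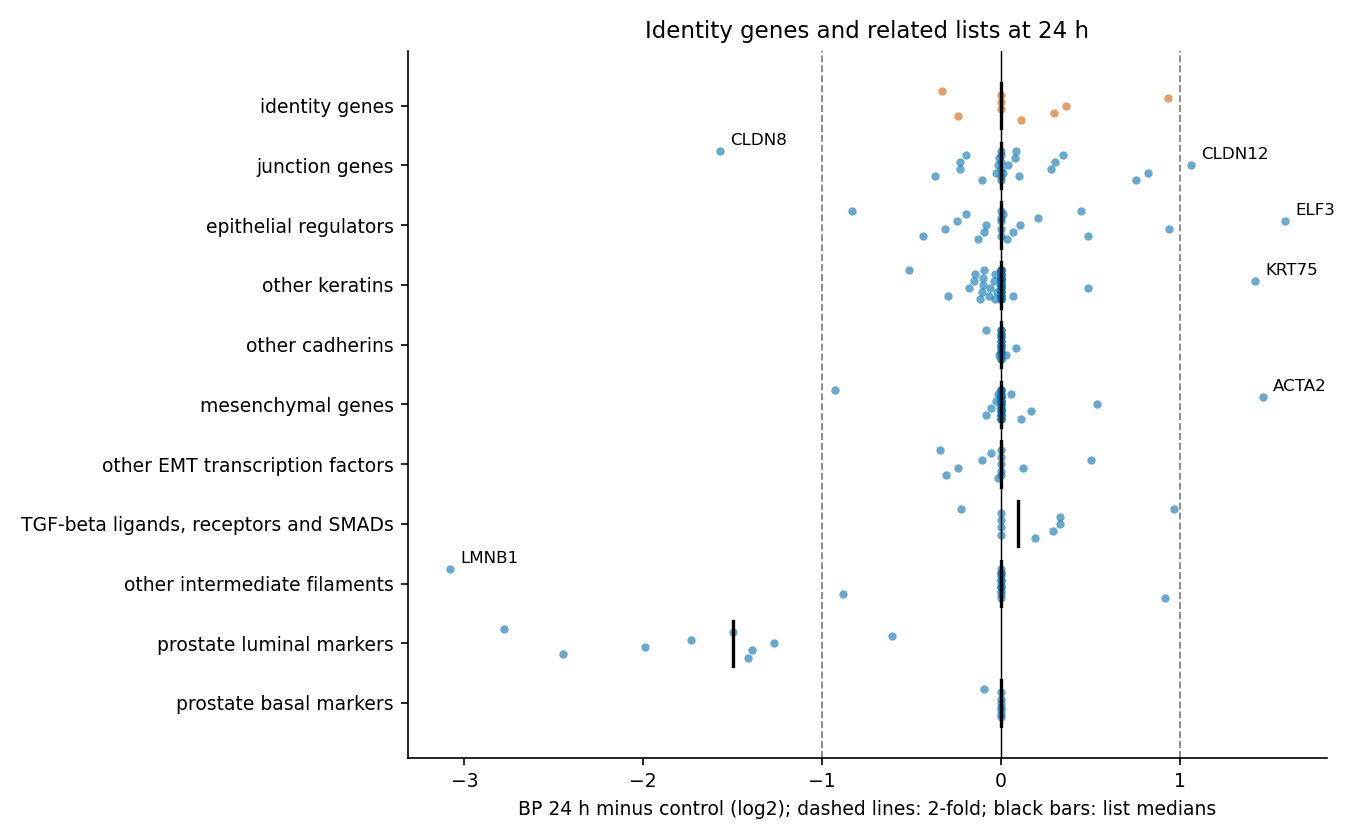
Difference of the log2 value at 24 h of BP from control for the 9 identity genes (top row, orange) and 10 related lists; each point is 1 gene, black bars are medians and dashed lines mark 2-fold, with genes past 2-fold named except among the luminal markers. The identity genes lie between -0.33 and 0.94, while 8 of the 9 luminal markers lie below the lower dashed line.

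Markers of the cell types a prostate culture could hold were examined beside the identity genes. Of 9 luminal markers 8 were at least 2-fold lower at 24 h, beside 2.11% of all genes, with a 24 h median of -1.50. None was at least 2-fold lower at 3 h, beside 0.0469% of all genes. KLK3, which encodes PSA, had a 24 h difference of -2.78, and FOXA1, which was not past 2-fold, one of -0.61. The luminal keratin genes KRT8 and KRT18, by contrast, were above control at 24 h by 0.94 and 0.11. The difference between these marker groups was not tested.

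Of 8 basal markers none was past 2-fold and 7 had exactly the control value at both times, TP63, the defining basal transcription factor, among them. Of 14 markers of fibroblasts, endothelium and blood none was past 2-fold, the 24 h value of 11 equalled that of control, and the highest difference was 0.17, of COL1A1. Of 7 neuroendocrine markers none was past 2-fold, and the highest 24 h difference was 0.64, of ENO2, which encodes a neuronal enolase. Apart from ENO2, KRT14, COL1A1 and INSM1, these markers had no value above the median over all genes on any array. Among all genes without such a value, 69.6% had exactly the control value at 24 h. Past 2-fold were 0.344% of all genes upward and 0.0469% downward at 3 h, and 1.53% and 2.11% at 24 h.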

How the data were processed

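Total RNA of 3 LNCaP cultures was hybridized by the authors to 1 array each. The log2 values of the 33297 transcript clusters were used as deposited by the authors. Expression Console and RMA are named in the submitters' notes, and MAS5.0 and GeneSpring in the Methods. Which of them made the values is not settled by the sources used here. Of the control array's clusters, 50.9% share their value with another cluster.

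The authors' comparison tables hold their own log2 ratios and folds, which were not used, and the annotation that gave symbols and cytobands (build not given in the sources used here). A gene was taken from clusters with 1 symbol, and from the cluster with the highest mean where there were several. For 5 listed genes an older symbol was matched through RefSeq synonyms and accessions. LOXL2, F11R, TWIST2 and CD68 had no cluster of their own, and miR-205 shared its cluster with a host gene.

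Members and lists were chosen with earlier results of these data known. Genes were named by rule: the 10 members, every list gene past 2-fold, and the largest differences of each list (up to 3 at 24 h and 2 at 3 h) among genes above the median level. LMNA, CTNNB1, CTNND1, JUP, CLDN1, CLDN3, CLDN4, TP63, FOXA1 and CDH3 were added after their values were seen. Differences were taken without further normalization. Alternatives rescaled the arrays, moved the threshold or changed which clusters counted. The script was tested on simulated data. Python 3.11.15, numpy 2.4.6, pandas 2.3.3 and matplotlib 3.10.9 were used.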

Additional observations from a re-analysis of the deposited data

Results flagged for a closer look

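Differences from control had opposite signs at the early and the late time for 3 of the 9 genes and for 12.8% of all 19208 genes. VIM had a 3 h difference of -0.057 and a 24 h difference of 0.30. SNAI2 had a 3 h difference of 0.44 and a 24 h difference of -0.33. KRT18 had a 3 h difference of -0.15 and a 24 h difference of 0.11. Each of these differences lay inside the central 95% of all genes. With 1 array per time, the change of sign was not tested, and both times share the control array.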

How the results depend on the processing

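Of 150 values computed under alternatives, 3 moved. A reversal was looked for only in differences of at least 1 in size. No member had such a difference, so none could be found. With only the 5 members that had a value above the median level, the median difference at 24 h was 0.30. It is the difference of VIM, which passed that level on the 24 h array alone. At a threshold of 1.5-fold, the count of members past it was 1 at 24 h and 2 between 24 h and 3 h. Centring each array on its median or 75th percentile and quantile normalization moved none of the single-gene differences by more than 0.11. Of 20 differences other than 0, 1 changed sign, that of CDH1 at 3 h, which ranged from -0.058 to 0.059. Averaging the clusters of a gene could move none, because each of these members has 1 cluster. The centrings and quantile normalization moved the median of all genes by at most 0.08 in size. Centring shifts all genes by the same amount, so it could move no difference past the limit of 0.20 given below. Counting the shared KRT19 cluster, an alternative chosen after seeing the data, moved no count. A value was called moved when it shifted by more than 0.20, which is the SD over genes of the 3 h differences, a limit also chosen after the data were seen. No replicate could be left out with 1 array per condition. No paired analysis was possible because each condition has 1 array and no label pairs the cultures.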
